A study of Homo sapiens with 42 samples.

Results

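The early transcription factor genes EGR1, EGR2, EGR3, EGR4, NR4A1, NR4A2 and NR4A3 and the corepressor genes NAB1 and NAB2 were followed across all conditions of an RNA sequencing study of RNA polymerase III (Pol III) inhibition. They are 9 of the 34318 genes in the summed table and were chosen by symbol, as families of early transcription factors and their corepressors, because of measured values: EGR3, NAB2 and NR4A3 were higher with the Pol III inhibitor ML-60218 in THP-1. The values of ML-60218 against DMSO and of ML-60218 with cycloheximide against cycloheximide alone are therefore given for these genes as a description, with no test. All other contrasts were tested. Polyadenylated RNA of 2 human lines was measured in 42 libraries, 3 for each of 14 groups in 5 experiments. THP-1, a monocytic leukaemia line, was treated with DMSO, with 25 uM ML-60218 for 4 h, with 10 ug/ml cycloheximide (CHX), which blocks translation, for 4.5 h, or with CHX and ML-60218 at those doses and times. The labels give no time for DMSO. HEK293T, an embryonic kidney line, was transfected for 48 h with an antisense oligonucleotide (ASO) against POLR3G or a scrambled ASO (200 nM), with a POLR3G siRNA or a control siRNA (200 nM), or with 1 of 3 POLR3GL siRNAs, named siE4, siE6 and siE8, or a control siRNA (25 nM). A further experiment in HEK293T set overexpression of MAF1 against overexpression of eGFP (48 h).

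EGR1 to EGR4 are zinc finger transcription factors that bind GC-rich sites and are transcribed within minutes of many stimuli through serum response factor (SRF) and its ETS partners, downstream of ERK signalling. NAB1 and NAB2 bind some of the EGR proteins and repress them, and NAB2 is itself an EGR target, which closes a feedback loop. NR4A1, NR4A2 and NR4A3 (Nur77, Nurr1 and NOR1) are orphan nuclear receptors whose genes respond early to cAMP, calcium and inflammatory signals through CREB and MEF2. In monocytes and macrophages, EGR1 and EGR2 accompany differentiation, and the NR4A receptors are known for limiting inflammatory gene expression. Transcripts of such early genes are often short-lived, and blocking protein synthesis with CHX is known to prolong or raise them. POLR3G and POLR3GL encode alternative forms of a Pol III subunit, and MAF1 encodes a protein that represses Pol III.

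In GENCODE 29 (GRCh38) the genes on the plus strand are EGR1 at chr5:138465490-138469315, NAB1 at chr2:190646746-190692766, NAB2 at chr12:57088894-57095476, NR4A1 at chr12:52022832-52059507 and NR4A3 at chr9:99821855-99866891. EGR3 is on the minus strand, with EGR2 at chr10:62811996-62919900, EGR4 at chr2:73290929-73293705 and NR4A2 at chr2:156324432-156342348.

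The promoters of 3 members are shown because they carry matches to sites by which such early genes are known to be controlled. The sequences are from RefSeq (GRCh38.p14), which gave a window of 300 bases around a gene start (250 before it and 50 after) for 7 of the 9 members. In EGR1 (chr5:138465229-138465478, plus strand, the 250 bases before the start) the capitals mark 2 CArG boxes, the SRF site made of CC, a run of A or T, and GG:
EGR1: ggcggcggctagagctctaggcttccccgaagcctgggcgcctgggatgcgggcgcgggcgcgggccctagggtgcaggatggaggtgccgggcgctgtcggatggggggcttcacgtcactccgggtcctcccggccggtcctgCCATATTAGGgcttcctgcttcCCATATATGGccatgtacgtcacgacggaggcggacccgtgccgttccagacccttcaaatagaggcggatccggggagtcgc
The boxes start -105 and -83 bases from the start. A CArG box was present in 1.29% of the 35116 RefSeq windows, and among the members it was also found in 1 EGR2 window. In NAB2 the capitals mark the EGR site GCGNGGGCG, at -62 from the RefSeq start (chr12:57089042-57089071, plus strand, 30 bases):
NAB2: tgtgcgtcctGCGGGGGCGgaggcgcggag
This site lies past the first NAB2 start of GENCODE 29, which is further upstream. Matches to GCGNGGGCG were present in 9.43% of all windows, and EGR1, EGR2 and NAB1 had them as well. In NR4A3 (chr9:99821635-99821854, plus strand, 220 bases ending before the GENCODE 29 start) the capitals mark TGACG, the CREB half-site, read on either strand:
NR4A3: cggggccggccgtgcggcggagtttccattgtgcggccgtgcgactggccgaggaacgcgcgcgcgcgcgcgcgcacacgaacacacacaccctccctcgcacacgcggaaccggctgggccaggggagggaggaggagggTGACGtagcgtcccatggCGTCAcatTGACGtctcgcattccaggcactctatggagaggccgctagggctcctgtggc
Of the 4 TGACG matches in the NR4A3 window, these 3 lie at -109, -91 and -83 from the RefSeq start. Some TGACG match was present in 24.6% of all windows. Among the members, EGR1, EGR2, EGR4 and NAB1 had such matches as well, while no NR4A1 window did. The NR4A1 windows lay around the starts 52022832 and 52037715. No window covered the downstream NR4A1 starts described below, so these were not searched. The full CREB site TGACGTCA (1.85% of windows), the NR4A site AAAGGTCA (1.22%) and the AP-1 site TGANTCA (7.71%) were searched on both strands too and were not found in the NR4A3 window.

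Libraries held 32705684 to 52568088 estimated reads. All 14 monocyte markers were higher in every THP-1 library than in every HEK293T library, with summed levels of 7913 to 10090 TPM (the authors' unit of transcript abundance, scaled by length and library) against 3.55 to 48.6 TPM, and all 7 HEK293T markers were higher in every HEK293T library. Targeted genes had moved in the labelled direction: POLR3G was 2.81-fold lower with the ASO and 2.38-fold lower with its siRNA, POLR3GL was 11.8-, 10.2- and 13.1-fold lower with siE4, siE6 and siE8, and MAF1 was 74.7-fold higher with overexpression. MAF1 was also 5.07-fold lower with the POLR3G siRNA (49.96 ± 1.30 against 9.84 ± 0.675 CPM, SD, n = 3 libraries), which bears on all values of that siRNA. POLR3G was also 1.80-, 1.48- and 1.91-fold lower with siE4, siE6 and siE8 (adjusted p = 1.21e-06, 3.09e-05 and 4.05e-07, edgeR), and POLR3GL was 1.36-fold lower with the POLR3G ASO and 1.49-fold lower with the POLR3G siRNA (adjusted p = 0.000186 and 7.91e-07), so none of these agents moved its target alone. The part of these changes in the members' values was not tested. In what follows CPM are gene counts scaled to a common library size by edgeR within an experiment, errors of levels are SD over n = 3 libraries, and errors of log2 fold changes are standard errors.

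In THP-1 with DMSO the corepressors were the most abundant members. On the TPM scale, which allows genes to be compared, NAB1 was at 20.9 ± 0.463, NAB2 at 11.6 ± 0.565, EGR1 at 2.81 ± 0.300, NR4A1 at 1.75 ± 0.255 and NR4A2 at 1.30 ± 0.106 TPM. Below them lay EGR3 (0.253 ± 0.0318 TPM), EGR2 (0.174 ± 0.0600), NR4A3 (0.128 ± 0.0464) and EGR4 (0.0455 ± 0.0223). In that order the libraries of EGR3 and EGR2, and those of EGR2 and NR4A3, overlapped, and all other neighbours were apart. CHX with ML-60218 gave another order, with NAB2 first at 42.8 ± 1.03 TPM, NAB1 at 26.5 ± 1.40, EGR1 at 19.1 ± 0.347, NR4A1 at 15.5 ± 1.93, EGR3 at 11.4 ± 1.37, NR4A2 at 8.85 ± 1.38, NR4A3 at 7.57 ± 0.764, EGR4 at 1.53 ± 0.289 and EGR2 at 1.08 ± 0.271. EGR3 and NR4A2, NR4A2 and NR4A3, and EGR4 and EGR2 overlapped there. In the HEK293T groups NAB1 averaged 12.6 to 33.5 TPM, NR4A1 9.44 to 25.2, NAB2 7.30 to 13.3, EGR1 2.52 to 14.6, NR4A2 1.95 to 4.90, NR4A3 1.35 to 3.24, EGR2 0.426 to 1.27 and EGR3 0.386 to 1.12. EGR4 was close to silent in HEK293T, with 1 to 9 reads per group in all 3 libraries together, and did not pass the filter on low counts. NR4A1, NR4A2, NR4A3, EGR2 and EGR3 averaged less in THP-1 with DMSO than in any HEK293T group. In such bulk libraries, fewer cells that express a gene and less RNA per cell cannot be told apart.

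With ML-60218 alone, EGR3, NAB2 and NR4A1 differed most from DMSO among the members with over 50 reads in each group. EGR3 stood at 0.719, 0.789 and 0.599 CPM in the DMSO libraries and at 2.53, 4.04 and 2.73 CPM with ML-60218. Every treated library was above every control library, and the fitted difference was 4.39-fold (log2 2.13 ± 0.20). NAB2, the inducible corepressor, was at 16.0, 17.7 and 18.2 CPM with DMSO and at 60.1, 73.4 and 53.9 CPM with ML-60218, which is 3.6-fold higher (log2 1.85 ± 0.096). NAB1, the other corepressor gene, differed less, at 54.3, 56.0 and 53.5 CPM against 70.6, 74.7 and 68.9 CPM (log2 0.39 ± 0.042). NR4A1 was at 2.42, 2.31 and 1.85 CPM with DMSO and at 5.82, 6.11 and 4.52 CPM with ML-60218, 2.49-fold higher (log2 1.32 ± 0.16).

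The remaining members differed less or rested on few reads. EGR1 was at 6.30, 5.39 and 5.02 CPM with DMSO and at 6.79, 7.23 and 7.35 CPM with ML-60218, a narrow separation (log2 0.35 ± 0.079). NR4A2 was at log2 0.22 ± 0.12 and NR4A3 at log2 0.74 ± 0.29, the latter with overlapping libraries and with 50 reads in all DMSO libraries and 89 in all ML-60218 libraries. EGR2 was at log2 0.040 ± 0.29, a value that turned negative, to as low as -0.18, when DMSO replicate 1, DMSO replicate 2 or ML-60218 replicate 3 was left out. EGR4 had 4 reads in the DMSO and 15 in the ML-60218 libraries (log2 1.73 ± 0.70, overlapping). Without overlap between the groups, 6 of the 9 members were higher with ML-60218 and 0 were lower, beside 16.6% of the 15327 genes higher and 16.6% lower by the same measure. Among these genes, 8.48% were called higher and 7.05% lower at an adjusted p under 0.05, but since this contrast chose the members, their count is not read against either share.

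**Figure D1:**
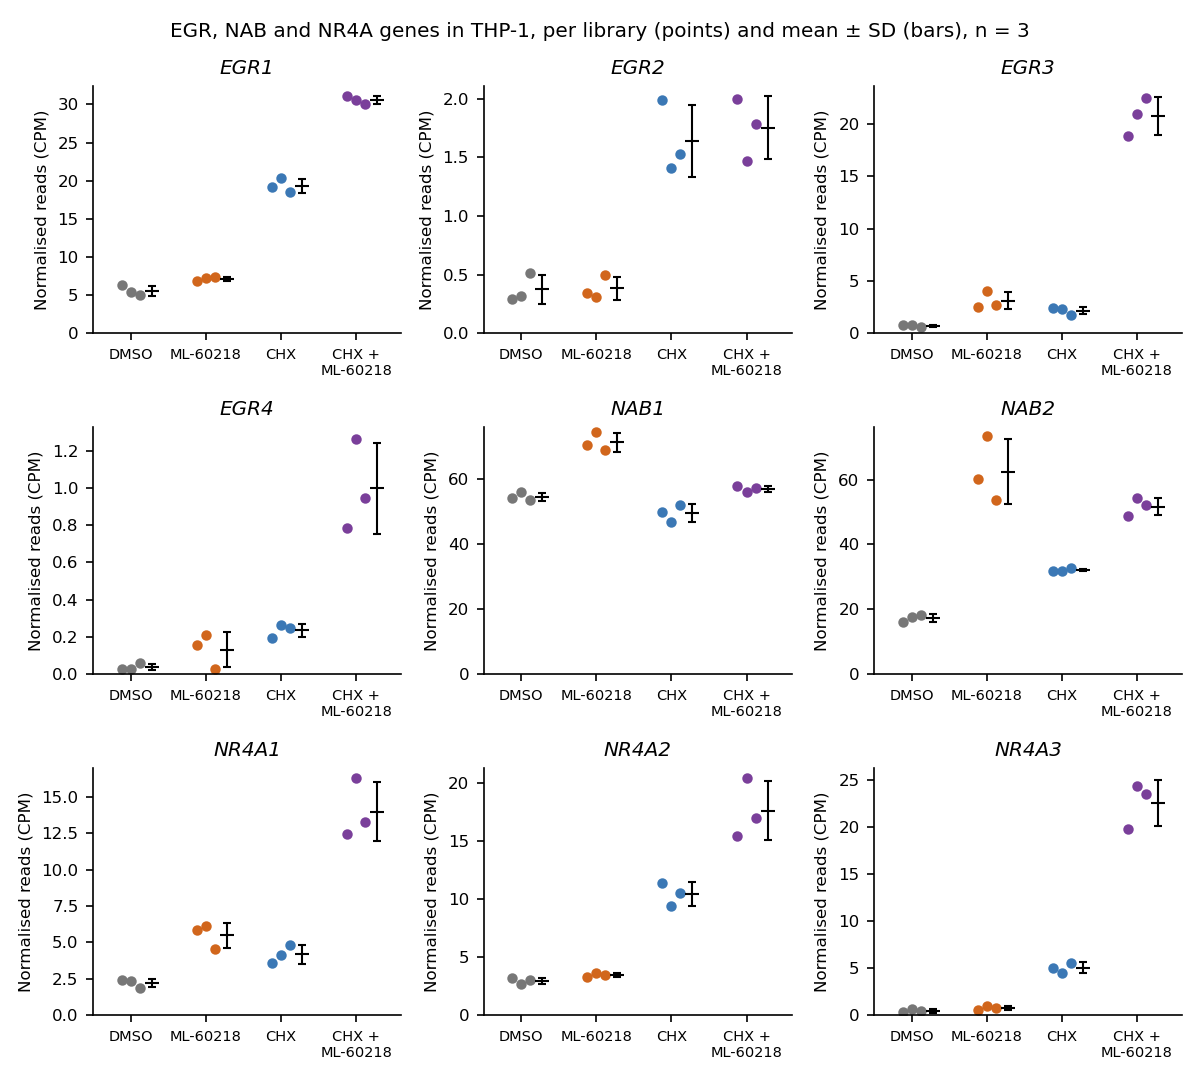
Normalised reads (CPM, y axis of each panel, starting at 0) of the 9 members in THP-1 with DMSO, ML-60218, CHX and both agents (x axis); points are libraries, and bars are the mean ± SD of n = 3. EGR1, EGR3, EGR4, NR4A1, NR4A2 and NR4A3 are highest with both agents, and NAB2 libraries with ML-60218 alone and with both agents overlap.

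When translation was blocked, ML-60218 still went with higher levels of the same genes, set against CHX alone. EGR3 was at 2.38, 2.30 and 1.75 CPM with CHX and at 18.9, 20.9 and 22.4 CPM with CHX and ML-60218, 9.65-fold higher (log2 3.27 ± 0.17). NR4A3 was at 5.05, 4.49 and 5.58 CPM with CHX and at 19.8, 24.4 and 23.5 CPM with both, 4.48-fold higher (log2 2.16 ± 0.17). Both genes lay far outside the range of their CHX libraries. NR4A1 was at 3.57, 4.12 and 4.80 CPM against 12.4, 16.3 and 13.2 CPM, 3.36-fold higher (log2 1.75 ± 0.15). NR4A2 was at 11.4, 9.37 and 10.5 CPM against 15.4, 20.4 and 17.0 CPM (log2 0.75 ± 0.11).

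EGR4 reached 0.787, 1.27 and 0.944 CPM with both agents, from 0.194, 0.261 and 0.250 CPM with CHX (27 reads against 120 reads in all, log2 2.08 ± 0.39). EGR1 was at 19.1, 20.3 and 18.5 CPM with CHX and at 31.1, 30.6 and 29.998 CPM with both (log2 0.66 ± 0.068), so its libraries were clearly apart. NAB2 was at 31.8, 31.9 and 32.6 CPM with CHX and at 48.9, 54.2 and 52.04 CPM with both, 1.61-fold higher (log2 0.69 ± 0.091). The difference without CHX was 3.6-fold. Between ML-60218 alone and both agents NAB2 libraries overlapped, and the order of the means depended on the scale, with the CPM mean higher for ML-60218 alone (62.4 against 51.7) and the TPM mean higher for both agents (42.8 ± 1.03 against 39.0 ± 4.42). NAB1 was at log2 0.20 ± 0.042 and EGR2 at log2 0.095 ± 0.22, which turned to -0.0057 without replicate 1 of both agents. In this contrast 8 of the 9 members were higher without overlap, all but EGR2, beside 17.7% of the 15327 genes higher and 16.9% lower by the same measure. By the test, 8.75% of genes were called higher and 7.75% lower. Both ML-60218 contrasts chose the members, so their count here is not read against any of these shares. For the same reason the difference between the fold changes without and with CHX was not tested for them.

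Exons of NAB2 overlap those of STAT6, which lies on the opposite strand, by 69 bases in GENCODE 29. The libraries were stranded per the labels' protocols, but the sources used here do not say whether reads were assigned by strand. STAT6 was at 325.4, 350.2, 113.7 and 127.1 CPM with DMSO, ML-60218, CHX and both agents. Its changes were log2 0.11 ± 0.028 with ML-60218 (adjusted p = 0.0226, edgeR), 0.16 ± 0.030 with ML-60218 under CHX (adjusted p = 0.00289) and -1.52 ± 0.029 with CHX (adjusted p = 7.42e-13). NAB2 and STAT6 thus moved in opposite directions with CHX and in the same direction with ML-60218, without and with CHX. Whether STAT6 reads entered the NAB2 values was not tested. Exons of NAB1, EGR3 and NR4A1 overlap only genes without a value in the fitted table.

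Over the 12 THP-1 libraries, the genes whose log2 CPM followed each of 4 members most closely among 10294 genes were listed as a description. For EGR3 they were SF1 (Pearson r = 0.991), ZNF274, ZFP36, SLC16A9 and SLC17A5 (r = 0.980). ZFP36, an early gene that encodes an mRNA decay factor, was the only one of them on the list of other immediate-early genes. For NAB2 they were PLIN2 (r = 0.989), LFNG, INKA2, C1orf162 and SPRED2 (r = 0.965), of which SPRED2 encodes an inhibitor of the ERK pathway. For NR4A3 they were MPHOSPH6 (r = 0.994), ATL2, ZNF44, FNIP1 and RYBP (r = 0.992), and for EGR1 they were SECISBP2 (r = 0.996), KLF11, PLEKHM2, RABGEF1 and HSD17B7 (r = 0.992). These libraries share 4 groups whose means set much of each correlation, so no p is given.

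NR4A1 and NR4A2 have several start sites, and their transcripts did not contribute equally. Transcripts were grouped where annotated starts lay within 500 bases of each other, a grouping chosen after the values were seen, and the reads are Salmon's estimates. NR4A1 transcripts from the upstream starts (chromosome 12, 52037177 to 52037715) were at 2.04, 1.86 and 1.53 CPM with DMSO, 82.5% of the gene's reads, and at 2.89, 3.06 and 2.33 CPM with ML-60218. Those from the downstream starts (52051402 to 52051463) were at 0.105, 0.0526 and 0 CPM with DMSO and at 1.72, 1.89 and 1.53 CPM with ML-60218. With CHX the downstream group was at 1.46, 1.80 and 2.28 CPM, and with both agents at 7.41, 10.3 and 8.94 CPM, 63.6% of the gene's reads. The downstream starts thus held 2.4% of NR4A1 reads with DMSO and the largest share with both agents.

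NR4A2 showed a like shift, on the minus strand of chromosome 2. Its upstream transcript NR4A2-204 (start 156342348) stayed between 1.52 and 2.81 CPM in all 12 libraries. The downstream group (starts 156332713 to 156332720), which holds NR4A2-201, was at 1.19, 0.767 and 1.09 CPM with DMSO, at 1.73, 2.01 and 1.45 CPM with ML-60218, at 8.02, 6.21 and 7.46 CPM with CHX and at 12.8, 15.8 and 14.5 CPM with both. Its share of NR4A2 reads was 34.4%, 50.4%, 69.3% and 81.8% in these groups. For NR4A3 the division between starts varied widely between replicates of HEK293T groups (0 to 6.81 CPM for the downstream start with the POLR3G siRNA), so no shares are compared.

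**Figure D2:**
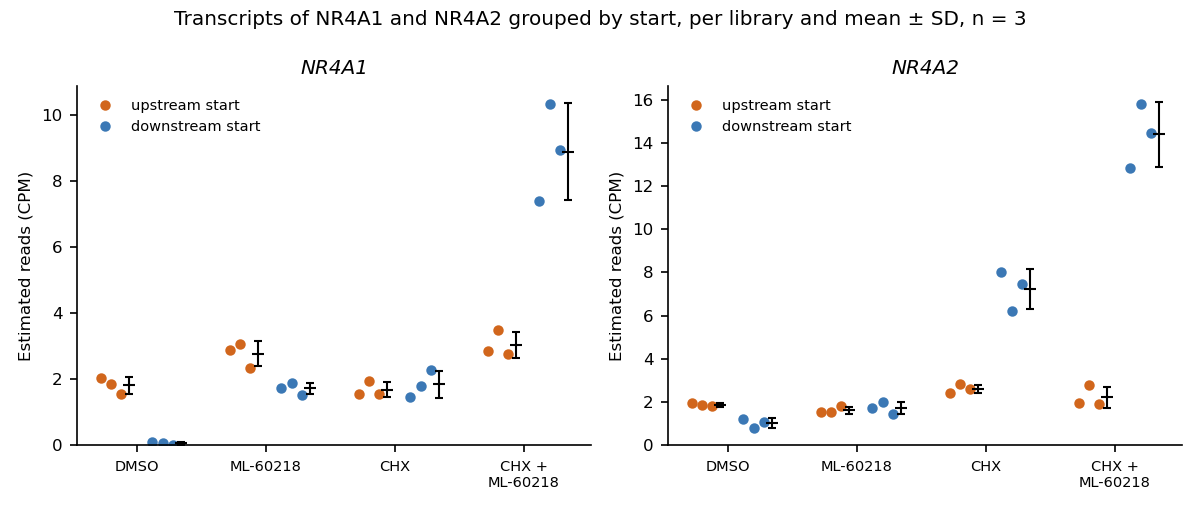
Estimated reads (CPM, y axis starting at 0) of NR4A1 and NR4A2 transcripts in THP-1, divided into an upstream and a downstream group of starts; points are libraries and bars the mean ± SD of n = 3. In both genes the downstream group (blue) is highest with CHX and ML-60218 together, while the upstream group (orange) stays below 4 CPM.

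CHX alone raised 8 of the 9 members and lowered 1, beside 33.5% and 32.5% of the 15327 genes called higher and lower. The median of the members was log2 1.79, against -0.0056 over all genes. NR4A3 rose most, from 0.288, 0.683 and 0.399 CPM with DMSO to the CHX levels given above, 10.8-fold (log2 3.44 ± 0.23, adjusted p = 2.91e-08, edgeR quasi-likelihood test with Benjamini-Hochberg adjustment, as for all adjusted p below). EGR2, which ML-60218 hardly moved, rose from 0.288, 0.315 and 0.514 to 1.99, 1.41 and 1.53 CPM, 4.39-fold (adjusted p = 8.48e-06). EGR1 and NR4A2 rose 3.47-fold (adjusted p = 3.47e-10) and 3.53-fold (1.76e-08), EGR3 3.04-fold (1.72e-05), NR4A1 1.89-fold (0.000251) and NAB2 1.85-fold (3.50e-06). EGR4 went from 4 to 27 reads in all (log2 2.56 ± 0.63). It passed the filter on low counts through the libraries with both agents (33, 49 and 38 reads, against 8, 10 and 9 with CHX). That group was used to choose the members, so the EGR4 call, though in the count above, is not read as a result. NAB1 fell by 0.14 on the log2 scale (adjusted p = 0.0106), a call that was lost with the length offset (adjusted p = 0.141) and without CHX replicate 2 (adjusted p = 0.0791). The contrasts of ML-60218 and CHX share the DMSO libraries, and the CHX libraries are the control of ML-60218 under CHX. The contrasts that chose the members thus used both groups compared here. The members' count and p-values for CHX are therefore not independent of that choice.

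Other immediate-early genes numbered 36 in the table, of which 34 were tested in THP-1. This list and those below were chosen with earlier results of these data known, so their counts may not be independent of these data. With ML-60218, 18 rose and 0 fell, beside 8.48% and 7.05% of the 15327 genes. Their median was log2 0.29 against -0.0086 over all genes. FOS, the partner of JUN in AP-1, rose from 22.6 to 31.5 CPM (log2 0.48 ± 0.054, adjusted p = 0.000111), KLF10 from 97.3 to 128.8 CPM (log2 0.40 ± 0.047, adjusted p = 0.000136) and JUND from 31.5 to 48.5 CPM (log2 0.62 ± 0.075, adjusted p = 0.000184). Under CHX 19 rose and 2 fell with ML-60218 (median log2 0.35), beside 8.75% and 7.75% of genes. FOSB, another FOS family member, rose from 1.83 to 16.4 CPM (log2 3.16 ± 0.19, adjusted p = 1.53e-06), a difference close in size to that of EGR3. JUND (log2 0.95 ± 0.075, adjusted p = 8.70e-06) and IER2 (log2 0.42 ± 0.034, adjusted p = 8.90e-06) rose too, and RGS2 (log2 -0.25 ± 0.072, adjusted p = 0.0335) and ARC (log2 -1.03 ± 0.32, adjusted p = 0.0465) fell. ARC fell outside the rule for named genes and is named because only 2 genes fell. With CHX alone 28 of the 34 rose and 3 fell, beside 33.5% and 32.5% of genes. GADD45B rose 5.40-fold (adjusted p = 9.66e-13), KLF10 4.94-fold (1.02e-12) and BTG2 3.31-fold (2.34e-11), while MYC fell 3.95-fold (1.38e-08).

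**Figure D3:**
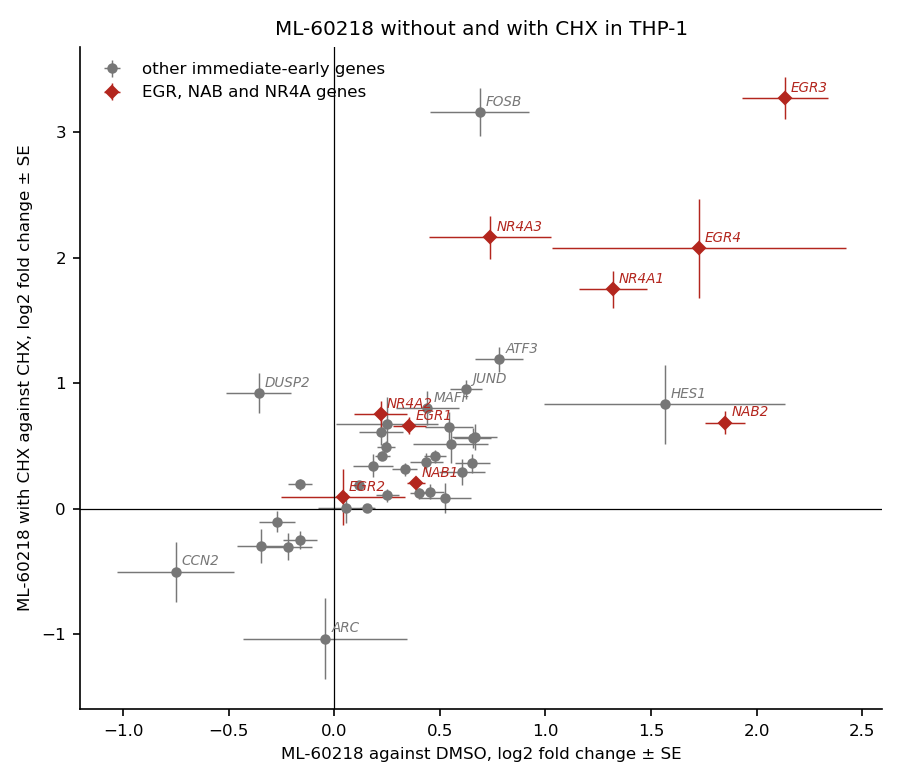
Log2 fold change ± SE of ML-60218 against DMSO (x axis) and of ML-60218 with CHX against CHX (y axis) for the 9 members (red diamonds) and 34 other immediate-early genes (grey circles) in THP-1. EGR3 lies furthest from the origin, and FOSB is near EGR3 on the y axis only; the members were chosen on these contrasts.

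Of 19 regulators upstream of the members (SRF, ETS, CREB, MEF2 and ERK pathway genes), 3 rose and 0 fell with ML-60218. Over the 15327 genes, 8.48% were called higher and 7.05% lower. The 3 were ELK3, an SRF partner (log2 0.38 ± 0.049, adjusted p = 0.000279), MRTFB, an SRF coactivator (log2 0.57 ± 0.078, adjusted p = 0.000411), and MEF2A (log2 0.25 ± 0.041, adjusted p = 0.00150). Under CHX 3 rose and 3 fell, beside 8.75% and 7.75% of genes. Among these regulators were CREM, which encodes a cAMP-responsive factor (log2 0.99 ± 0.15, adjusted p = 0.00101), and CRTC1, a CREB coactivator (log2 -0.23 ± 0.062, adjusted p = 0.0231). With CHX alone 10 rose and 8 fell, beside 33.5% and 32.5% of genes. CREB1 rose 2.05-fold (adjusted p = 1.65e-10), and SRF (2.54-fold, 3.73e-11) and MEF2D (2.14-fold, 1.18e-10) fell.

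Feedback genes of the ERK pathway were 13, of which 12 were tested in THP-1. With ML-60218 7 rose and 0 fell, beside 8.48% and 7.05% of the 15327 genes. Those that rose included SPRED2 (log2 0.35 ± 0.043, adjusted p = 0.000196), PHLDA1 (log2 1.10 ± 0.14, adjusted p = 0.000279) and the phosphatase gene DUSP4 (log2 0.76 ± 0.10, adjusted p = 0.000411). Under CHX 3 rose and 0 fell, beside 8.75% and 7.75% of genes. The 3 were CCND1 (log2 0.40 ± 0.071, adjusted p = 0.00235), DUSP4 (log2 0.40 ± 0.097, adjusted p = 0.0141) and SPRED2 (log2 0.15 ± 0.042, adjusted p = 0.0329). CHX alone raised 8 of the 12 and lowered 0, beside 33.5% and 32.5% of genes.

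Genes described as EGR targets numbered 17 in the table, of which 15 were tested in THP-1. ML-60218 raised 11 and lowered 0 (median log2 0.38 against -0.0086 over all genes), beside 8.48% and 7.05% of the 15327 genes. TGFB1 rose from 73.4 to 107.2 CPM (log2 0.55 ± 0.049, adjusted p = 2.33e-05), IL1B from 5.04 to 11.3 CPM (log2 1.17 ± 0.12, adjusted p = 5.01e-05) and CD44 from 339.0 to 463.2 CPM (log2 0.45 ± 0.061, adjusted p = 0.000374). Under CHX 7 rose and 0 fell, beside 8.75% and 7.75% of genes. THBS1, which encodes thrombospondin-1, rose from 28.3 to 79.9 CPM (log2 1.496 ± 0.156, adjusted p = 6.38e-05), with CDKN1A (log2 0.36 ± 0.060, adjusted p = 0.00156) and PDGFA (log2 0.48 ± 0.099, adjusted p = 0.00579). Of 10 tested partners of EGR, NAB and NR4A proteins, ML-60218 raised RXRA, the dimer partner of NR4A1 and NR4A2 (log2 0.21 ± 0.035, adjusted p = 0.00164), and lowered CITED2 (log2 -0.29 ± 0.061, adjusted p = 0.00592). Under CHX 2 partners rose and 3 fell, beside the same 8.75% and 7.75% of genes, with RXRA now falling (log2 -0.31 ± 0.037, adjusted p = 0.000152). Many of the listed genes answer to inputs other than EGR, and their dependence on EGR was not tested.

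In HEK293T the members did not move as a set. With the POLR3G ASO, 4 of the 8 tested members rose and 1 fell, beside 34.4% of the 17098 genes called higher and 34.1% called lower. NR4A2 rose from 4.71, 5.08 and 4.94 CPM to 9.63, 8.26 and 8.48 CPM (log2 0.84 ± 0.094, adjusted p = 4.54e-05). EGR1 rose from 17.8, 16.0 and 17.5 to 24.3, 24.0 and 27.0 CPM (log2 0.56 ± 0.065, adjusted p = 6.22e-05), and EGR3 from 1.4998, 1.11 and 1.61 to 1.96, 2.16 and 2.15 CPM (log2 0.57 ± 0.17, adjusted p = 0.0146). In each of these genes all ASO libraries were above all control libraries. NAB1 fell from 68.5, 65.1 and 67.7 to 48.1, 50.8 and 47.9 CPM (log2 -0.46 ± 0.035, adjusted p = 4.49e-06).

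NR4A3 rose with the ASO at log2 0.35 ± 0.11 (adjusted p = 0.0169), a call lost without the filter on low counts (0.0519), with the length offset (0.0862) and without ASO replicate 1 (0.0564), ASO replicate 2 (0.0673) or scrambled ASO replicate 3 (0.0562), all as adjusted p. NAB2 (log2 0.12 ± 0.063, adjusted p = 0.117), EGR2 (0.30 ± 0.21, 0.228) and NR4A1 (0.031 ± 0.074, 0.722) did not pass the test. Behind the NR4A1 value lay unequal start groups: the upstream one was at 6.08, 5.95 and 6.38 CPM with the scrambled and 7.73, 8.70 and 7.60 CPM with the POLR3G ASO, the downstream one at 5.89, 4.44 and 5.67 against 3.34, 2.57 and 4.45 CPM. Of 35 other immediate-early genes, 31 rose and 1, MYC, fell (median log2 0.69), beside 34.4% and 34.1% of the 17098 genes. GADD45B rose 9.73-fold (adjusted p = 3.27e-08), DUSP1 2.44-fold (3.23e-08) and PPP1R15A 2.22-fold (3.23e-08), all more than any member.

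The POLR3G siRNA raised 2 members and lowered 3 of 8, beside 36.8% and 38.1% of the 15423 genes called higher and lower. EGR2 rose from 0.911, 1.01 and 1.06 CPM with the control siRNA to 1.89, 2.11 and 2.05 CPM, 2.03-fold (log2 1.02 ± 0.14, adjusted p = 0.000158). NAB1 rose from 52.2, 51.2 and 50.1 to 62.9, 63.0 and 64.3 CPM (log2 0.31 ± 0.027, adjusted p = 5.99e-06). NR4A1 fell from 17.4, 17.3 and 15.9 to 13.3, 12.5 and 13.0 CPM (log2 -0.38 ± 0.054, adjusted p = 0.000183). NAB2 fell by 0.35 on the log2 scale (adjusted p = 0.00261), and these 4 genes had no overlap between libraries.

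EGR1 was lower with the siRNA at log2 -0.28 ± 0.11 (adjusted p = 0.0381), with overlapping libraries. Its call was lost in DESeq2 (adjusted p = 0.0502), with the length offset (0.0758) and without control siRNA replicate 1 (0.0524), 2 (0.0558) or 3 (0.120) or POLR3G siRNA replicate 2 (0.135) or 3 (0.107). EGR3 (log2 0.10 ± 0.16), NR4A2 (0.034 ± 0.080) and NR4A3 (-0.11 ± 0.13) did not pass the test, at adjusted p = 0.575, 0.716 and 0.448. The other immediate-early genes divided, 16 rising and 12 falling of 35, beside 36.8% and 38.1% of genes. TRIB1 was 6.67-fold (adjusted p = 3.61e-11), MCL1 2.84-fold (9.69e-11) and MYC 1.71-fold (1.60e-08) higher. JUND was 3.56-fold (6.41e-08), ATF3 2.42-fold (8.06e-07) and CSRNP1 1.82-fold (1.87e-06) lower.

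The fold changes of the ASO and the siRNA against POLR3G, each taken against its own control, differed in 7 of 8 members in a fit over the 12 libraries. Of these 5 were higher and 2 lower for the ASO, beside 33.8% and 33% of 17489 genes. The differences were log2 0.81 ± 0.13 for EGR1 (adjusted p = 0.000125), 0.78 ± 0.12 for NR4A2 (6.21e-05) and -0.79 ± 0.042 for NAB1 (1.99e-09), which fell with the ASO and rose with the siRNA. Each agent was used in its own experiment, so agent and experiment cannot be told apart.

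**Figure D4:**
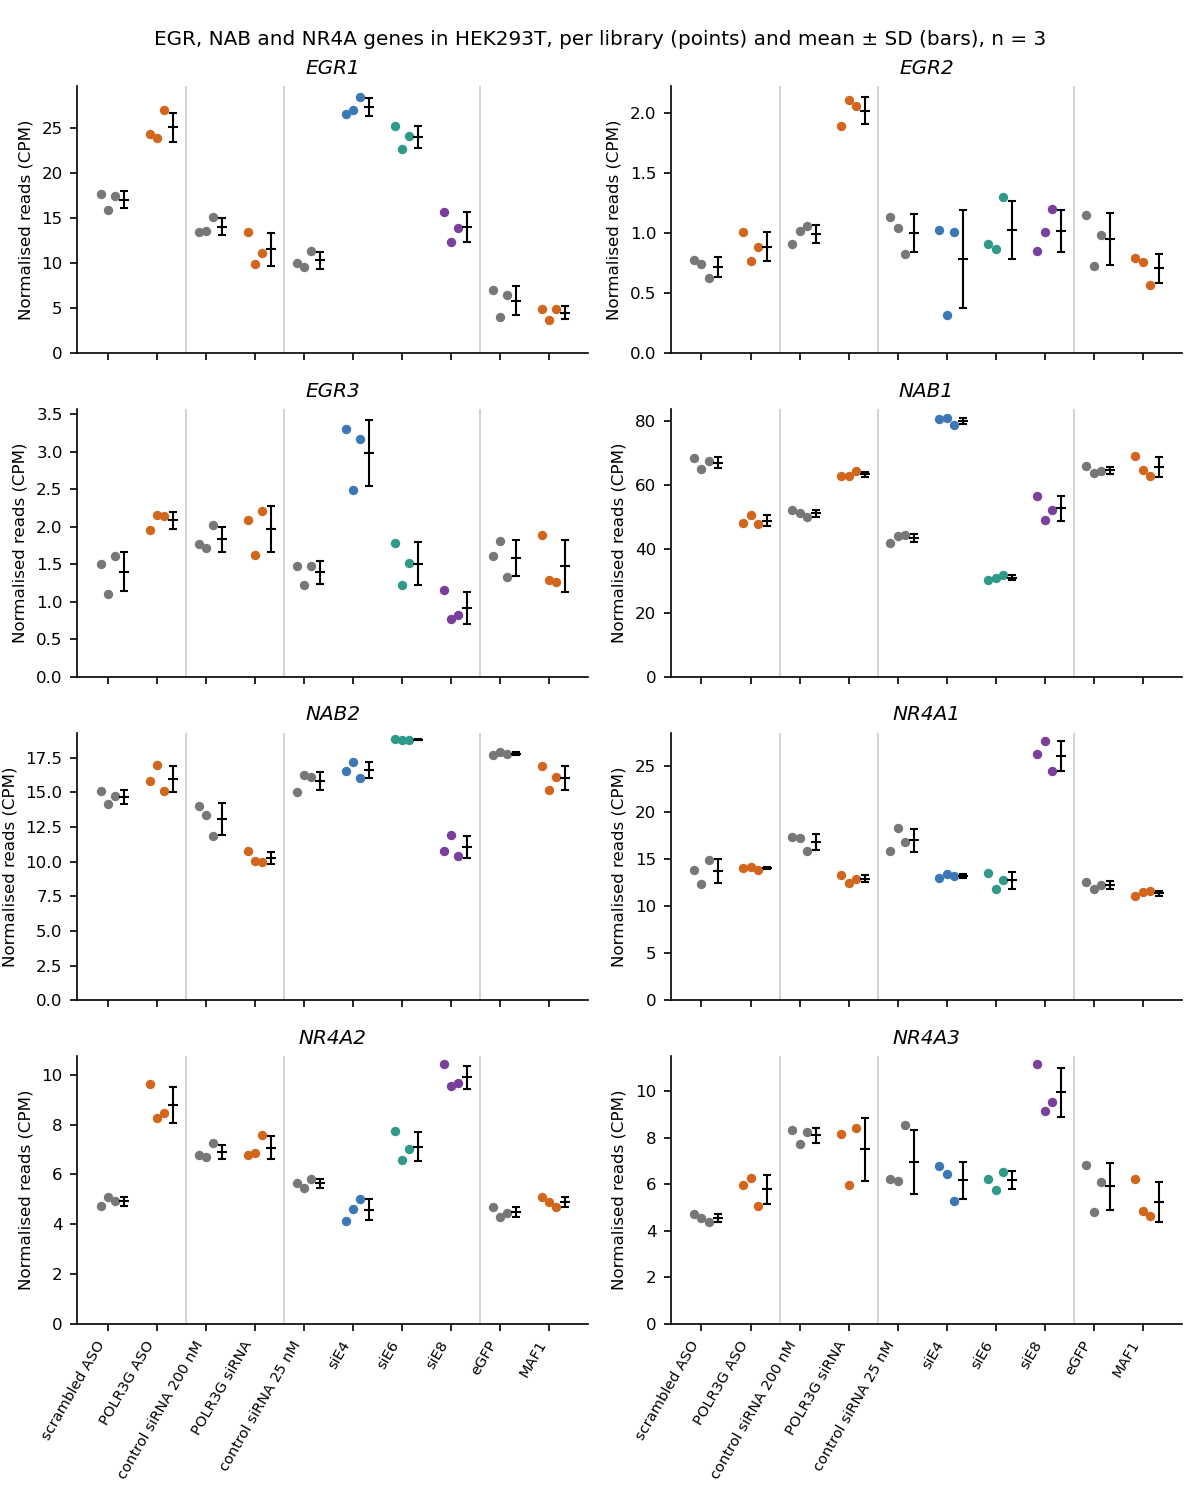
Normalised reads (CPM, y axis of each panel, starting at 0) of the 8 members tested in HEK293T, by group (x axis); points are libraries, bars the mean ± SD of n = 3, and grey lines divide the experiments. Values were scaled within each experiment; among the POLR3GL siRNAs, EGR1 and NAB1 are highest with siE4 and NR4A1 with siE8.

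The 3 POLR3GL siRNAs raised EGR1 alike in direction and otherwise gave different patterns, although each lowered POLR3GL over 10-fold. They share 1 control group. EGR1 was at 10.1, 9.58 and 11.4 CPM with the control siRNA, at 26.6, 27.0 and 28.5 CPM with siE4 (log2 1.40 ± 0.087, adjusted p = 2.50e-08), at 25.2, 22.7 and 24.1 CPM with siE6 (log2 1.21 ± 0.087, adjusted p = 6.11e-08) and at 15.7, 12.4 and 13.9 CPM with siE8 (log2 0.44 ± 0.088, adjusted p = 0.000855). NAB1 was at 42.0, 44.2 and 44.3 CPM with the control and rose to 80.6, 80.9 and 78.9 CPM with siE4 (log2 0.88 ± 0.049, adjusted p = 9.48e-09). With siE6 it fell to 30.3, 30.8 and 31.8 CPM (log2 -0.49 ± 0.050, adjusted p = 2.03e-06). With siE8 it rose to 56.7, 49.2 and 52.2 CPM (log2 0.28 ± 0.050, adjusted p = 0.000311), a call that the length offset took away (adjusted p = 0.215).

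EGR3 rose with siE4 (log2 1.10 ± 0.20, adjusted p = 0.000387), did not pass the test with siE6 (0.11 ± 0.20, 0.659) and fell with siE8 (-0.59 ± 0.21, 0.0274). That last call was lost in DESeq2 (adjusted p = 0.0650) and without control siRNA replicate 1 (0.0728) or 3 (0.0754) or siE8 replicate 2 (0.102) or 3 (0.0932). NAB2 was at log2 0.072 ± 0.061 with siE4 (adjusted p = 0.342), rose with siE6 (0.25 ± 0.060, 0.00261), where the length offset ended the call (0.0915), and fell with siE8 (-0.52 ± 0.062, 9.53e-06). EGR2 did not pass the test with any of them (adjusted p = 0.425, 0.939 and 0.965 for siE4, siE6 and siE8).

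All 3 NR4A genes rose with siE8, while NR4A1 and NR4A2 fell with siE4, and with siE6 NR4A1 fell and NR4A2 rose. NR4A1 was at 15.9, 18.3 and 16.8 CPM with the control siRNA and at 26.2, 27.6 and 24.4 CPM with siE8 (log2 0.61 ± 0.070, adjusted p = 5.89e-06), and it fell to 13.1, 13.5 and 13.3 CPM with siE4 (log2 -0.36 ± 0.071, adjusted p = 0.000800) and to 13.6, 11.8 and 12.9 CPM with siE6 (log2 -0.42 ± 0.071, adjusted p = 0.000188). NR4A2 rose with siE8 (log2 0.81 ± 0.093, adjusted p = 6.66e-06) and siE6 (0.33 ± 0.093, 0.00687) and fell with siE4 (-0.30 ± 0.095, 0.0166). The fall was lost in DESeq2 (adjusted p = 0.0559) and without siE4 replicate 1 (0.0735). NR4A3 rose with siE8 (log2 0.51 ± 0.14, adjusted p = 0.00624) and was at -0.18 ± 0.14 with either of the others (adjusted p = 0.315 and 0.296). The downstream start group of NR4A1 went from 9.47, 11.4 and 11.1 CPM with the control to 18.4, 21.6 and 17.4 CPM with siE8, while the upstream group was at 4.81, 5.55 and 4.48 against 5.71, 4.71 and 5.41 CPM.

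In counts, siE4 raised 3 of 8 members and lowered 2, beside 26.2% and 28.7% of the 15573 genes. For siE6 these were 3 and 2 (31.2% and 31.8% of genes), and for siE8 5 and 2 (29.1% and 28.6%). Compared directly, siE4 was higher than siE6 in 2 members and lower in 2 (32.2% and 32.6% of genes), higher than siE8 in 4 and lower in 3 (30.5% and 32.4%), and siE6 was higher than siE8 in 3 and lower in 4 (32.1% and 32.1%). The largest of these differences was EGR3 between siE4 and siE8 (log2 1.69 ± 0.21, adjusted p = 8.96e-06), followed by NAB1 between siE4 and siE6 (1.37 ± 0.050, 1.04e-10). NR4A1 was lower with siE4 than with siE8 (log2 -0.97 ± 0.071, adjusted p = 5.87e-08) and lower with siE6 than with siE8 (-1.03 ± 0.071, 3.41e-08). EGR1 did not pass the test between siE4 and siE6 (log2 0.19 ± 0.083, adjusted p = 0.0618), and passed it with DESeq2 size factors (0.0471), with the length offset (0.0485) and without control siRNA replicate 3 (0.0492) or siE8 replicate 1 (0.0342) or 2 (0.0396). NAB2 was lower with siE4 than with siE6 (log2 -0.18 ± 0.060, adjusted p = 0.0189), a call lost in DESeq2 (0.0541), with the length offset (0.0986) and without siE4 replicate 3 (0.0690) or siE6 replicate 1 (0.0537).

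Other immediate-early genes also divided between these siRNAs, with 9 of 35 rising and 14 falling with siE4, 21 and 5 with siE6, and 13 and 12 with siE8. MCL1, an anti-apoptotic BCL2 relative, rose with each, 2.85-fold with siE4 (adjusted p = 1.24e-11), 3.65-fold with siE6 (2.03e-12) and 2.77-fold with siE8 (6.55e-12). Of 13 ERK feedback genes, siE4 raised 3 and lowered 6, siE6 raised 1 and lowered 7, and siE8 raised 1 and lowered 8. The POLR3G siRNA raised 11 of them and lowered 1 (36.8% and 38.1% of genes), and the POLR3G ASO raised 3 and lowered 2 (34.4% and 34.1%). For the 2 lists in this paragraph, the shares of all genes called higher and lower were 26.2% and 28.7% with siE4. They were 31.2% and 31.8% with siE6, and 29.1% and 28.6% with siE8.

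Overexpression of MAF1 called none of the 8 tested members in edgeR or DESeq2, beside 0.0322% of the 15543 genes called higher and 0.00643% called lower. At an unadjusted p under 0.05 there was 1 member, NAB2, at 17.7, 17.9 and 17.8 CPM with eGFP and 16.9, 15.2 and 16.1 CPM with MAF1 (log2 -0.15 ± 0.055, adjusted p = 0.470). EGR1 was at 7.07, 4.05 and 6.45 CPM with eGFP and at 4.89, 3.70 and 4.95 CPM with MAF1, overlapping (log2 -0.37 ± 0.20, adjusted p = 0.582). The other members ranged from log2 -0.43 (EGR2) to 0.13 (NR4A2). None of the 35 other immediate-early genes was called, with 6 at an unadjusted p under 0.05.

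**Figure D5:**
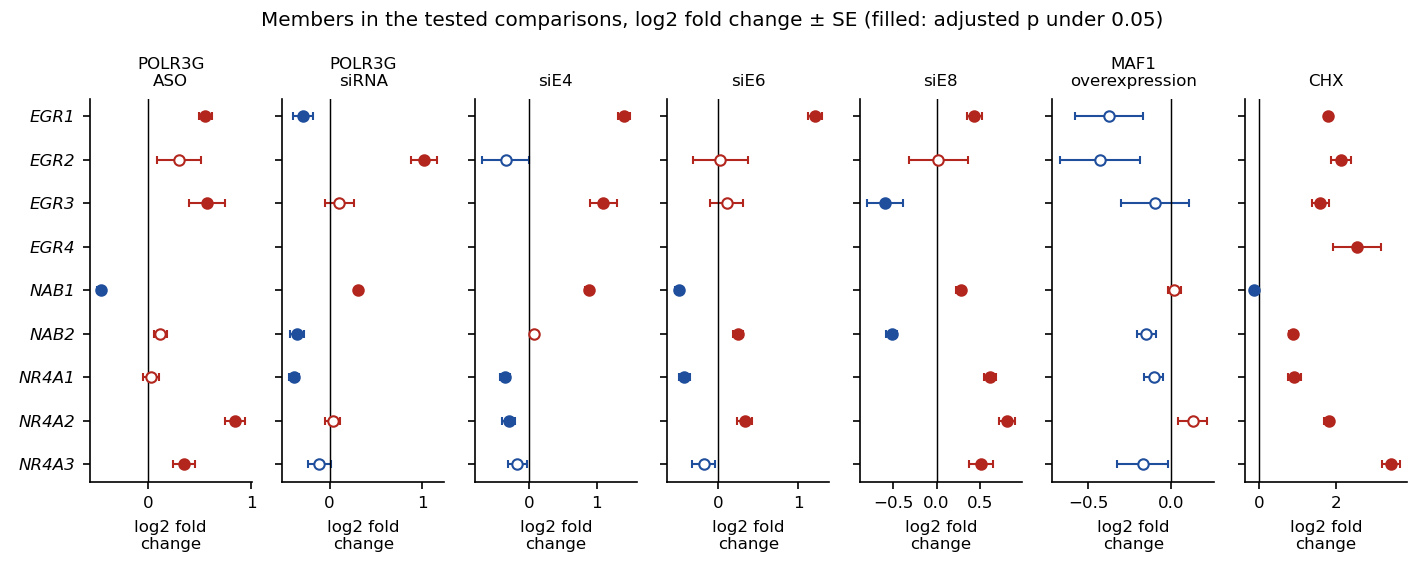
Log2 fold change ± SE (x axis, scaled separately in each panel) of the members (rows) in the 7 tested comparisons with a control group; filled points have an adjusted p under 0.05, red is higher and blue lower. In the CHX panel (THP-1) all members but NAB1 lie above 0, and the HEK293T panels hold points on both sides of 0. EGR4 is drawn as called with CHX, but it rests on few reads and its call is not read as a result.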

How the data were processed

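RNA of 42 libraries was analysed. Per the labels' protocols, poly(A) libraries were stranded and read for 151 cycles from both ends. Per the submitters' processing notes, bcl2fastq 2.20, Trim Galore, Salmon and DESeq2 were used with hg38; which transcript annotation they chose is not given in the sources used here. The authors deposited, per the file headers, 1 estimated count and 1 TPM value per library for each of 194142 transcripts and each library. Of these transcripts, 158359 (81.6%) matched GENCODE 29, and the others, with 8.06% to 9.54% of a library's reads, entered no gene. Gene values are the rounded sums of these estimates. Each experiment had its own fit in edgeR 4.0.16 under R 4.3.3 (TMM scaling, filterByExpr, quasi-likelihood F-test, Benjamini-Hochberg over all genes, calls at an adjusted p under 0.05), checked on simulated data. Members and lists were chosen with earlier results of these data known. The labels do not say that replicates were separate cultures, so a p-value reflects the spread between libraries alone, which may be technical.

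Named beside the members are, per list, up to 3 called genes per direction with the smallest adjusted p, a mean of at least 5 CPM and no overlap between libraries (up to 1 from the other early genes in the POLR3GL experiment). Alternatives were DESeq2 1.42.0, its size factors, tests without the low-count filter, a correction for the mean effective length of a gene in each library (length offset), the replicate number as a block and each library left out. Tables and figures used Python 3.11.15, numpy 2.4.6, pandas 2.3.3 and matplotlib 3.10.9.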

Additional observations from a re-analysis of the deposited data

Results flagged for a closer look

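The response to the POLR3G ASO and to the POLR3G siRNA differed in 7 members by a test of the difference itself (edgeR, adjusted over 17489 genes), each agent against its own control. The ASO response minus the siRNA response was log2 0.81 for EGR1, 0.78 for NR4A2, 0.44 for NAB2, 0.43 for NR4A3 and 0.38 for NR4A1, and -0.74 for EGR2 and -0.79 for NAB1. EGR3 did not pass (0.44 ± 0.23, adjusted p = 0.113). The median difference over all genes was 0.077. For NR4A3 the adjusted p was 0.0431 and rose to between 0.0575 and 0.115 when any 1 library was left out other than POLR3G siRNA replicates 1 and 3 and POLR3G ASO replicate 3, and to 0.0947 without the filter on low counts and 0.233 with the length offset. For NR4A1 the difference was 0.062 with the length offset (adjusted p = 0.744). EGR2 missed the threshold in DESeq2 (adjusted p = 0.0791). MAF1 was 5.07-fold lower with the siRNA, and its part in these differences was not tested.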

How the results depend on the processing

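Counts of called members, both directions together, stayed within 1.5 times the values given under every alternative, but some counts in 1 direction did not. The lowered members went from 2 to 1 in DESeq2 with siE4, with siE8, for siE4 against siE6 and for the ASO minus the siRNA, and also without siE4 replicate 1 with siE4, without control siRNA replicate 1 or 3 or siE8 replicate 2 or 3 with siE8, and with the length offset or without siE4 replicate 3 or siE6 replicate 1 for siE4 against siE6. With CHX they went from 1 to 0 with the length offset and without CHX replicate 2. The members higher for the ASO than for the siRNA went from 5 to 3 with the length offset. Depth limits EGR4 throughout and EGR2, EGR3 and NR4A3 in THP-1 with DMSO, where 3 libraries held 40, 76 and 50 reads. In the tested contrasts, the results that changed direction were those of members that had not passed the test, and the cause was not tested. With the length offset these were NR4A1 with the ASO (-0.23), EGR3 with the POLR3G siRNA (-0.012), and EGR2 with siE4 (0.64), between siE4 and siE6 (0.14), siE4 and siE8 (0.075) and siE6 and siE8 (-0.062), all as log2 fold changes. Without the filter on low counts, NR4A1 with the ASO was at -0.0062. NR4A3 between siE4 and siE6, at -0.00026 as given, was at 0.0088 in DESeq2, 0.012 with DESeq2 size factors, 0.056 with the length offset and 0.0027 with the replicate block.

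Leaving out each library in turn gave these ranges where the direction changed: NR4A1 with the ASO -0.042 to 0.090, NR4A3 and NR4A2 with the POLR3G siRNA -0.19 to 0.041 and -0.0079 to 0.075, EGR2 with siE4 -0.58 to 0.025, with siE6 -0.17 to 0.14 and with siE8 -0.11 to 0.14, NR4A3 with siE6 -0.26 to 0.00099, EGR3 with siE6 -0.031 to 0.25, NR4A3 between siE4 and siE6 -0.074 to 0.10, EGR2 between siE4 and siE8 -0.60 to 0.0026 and between siE6 and siE8 -0.19 to 0.15, and NAB1 and EGR3 with MAF1 -0.020 to 0.050 and -0.31 to 0.011.

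Deviations of same-numbered replicates were weakly correlated at most (-0.14 to 0.14), which cannot exclude that the numbers pair the libraries. The main fits did not use such a pairing. The replicate block left 5 members called with the POLR3G ASO, 9 with CHX, and 5 against 4 between siE4 and siE6, where EGR1 passed (adjusted p = 0.0399). Other early genes called with ML-60218 were 22 under the block against 18, and SPRED2 with ML-60218 under CHX lost its call (adjusted p = 0.0546).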
